A study of Danio rerio with 13 samples.

Results

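The shared cold response of ZF4 cells was taken as the set of genes whose RNA level moved the same way after 5 days and after 30 days at 18°C. ZF4 is a fibroblast line grown from zebrafish embryos. The 9 RNA libraries were 3 from control cells kept at 28°C and 3 each from cells moved to 18°C for 5 or 30 days (named 18°C /5d and 18°C /30d), all in one medium under 5% CO2, and the libraries of each condition were numbered 1 to 3. How many days the 28°C cells had been in culture is not given in the sources used here. A gene was called shared when the mean of both cold conditions differed from 28°C at a Benjamini-Hochberg adjusted p under 0.05 (edgeR quasi-likelihood F-test with the replicate number as a block) and its level differed in the same direction in all 6 pairs of a cold library with the 28°C library of the same number. Of the 32677 genes counted, 19622 were tested, and 667 were called shared (3.40% of those tested), 372 of them higher in the cold (1.90%) and 295 lower (1.50%). The series also held 3 methylated DNA immunoprecipitation (MeDIP) libraries and 1 input DNA library, for 13 samples in all.

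Fish cells take the temperature of their surroundings. In the cold, membranes stiffen, enzymes slow down, protein folding and translation are affected, and cells are known to answer with changes in RNA-binding proteins, chaperones, membrane lipids and metabolic enzymes. Fibroblasts make and remodel the collagen-rich extracellular matrix, a task that depends on chaperones and enzymes of the endoplasmic reticulum, and they answer to transforming growth factor beta (TGF-beta), a secreted signal that raises matrix genes. Zebrafish cell lines also carry their own circadian clock, which is set by light and temperature.

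Among the genes called lower at 18°C were the collagen chaperone serpinh1b, the methionine adenosyltransferases mat2aa and mat1a, adenosine kinase (adka), the transcription factor jun and the linker histone h1-10. Among those called higher were the collagen prolyl 3-hydroxylase p3h2, the TGF-beta ligand tgfb1a, the gelatinase mmp9, the cryptochrome cry1a and the proteasome activator PSME4. The median log2 fold change of the 372 genes that rose was 1.50, against 1.41 after 5 days and 1.60 after 30 days alone. The 295 genes that fell had a median of -1.27, against -1.28 and -1.30, and the median of all genes tested was 0.01. A change of at least 2-fold was found in 314 genes that rose and 228 that fell, and of at least 4-fold in 121 and 41. A mean below the median of genes tested was found in 177 of the 372 genes that rose and 113 of the 295 that fell. By definition, as many of all genes tested lie below that median as above it. Since 8 of the genes that rose had no count in any 28°C library, their fitted fold changes are no measure of size; with these genes at the bound set by 3 counts over the 28°C group, the median was still 1.50. In cell populations such as these, fewer cells of a type and less RNA per cell cannot be told apart.

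The direction alone was common, and 4402 genes had an unadjusted p under 0.05. All 6 pairs were higher in the cold in 2910 genes (14.8% of those tested) and lower in 2288 (11.7%), with no test applied. All 6 cold libraries lay above all 3 at 28°C in 1194 genes (6.09%) and below them in 961 (4.90%). Among the genes called shared the corresponding numbers were 319 of 372 (85.8%) and 246 of 295 (83.4%). Their high shares follow in large part from the rule for a call, which used the same libraries, and add no support to the calls. Just inside the threshold were ENSDARG00000086355 (log2 fold change -2.12, adjusted p = 0.05) and si:dkey-266m15.5 (-1.26), and just outside it wnk3 (1.77, adjusted p = 0.0501) and pfkfb4a (0.85, adjusted p = 0.0502). A single gene passed the test but did not move the same way in all pairs.

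Total counts were 37509447 to 44853311 in the libraries numbered 1 and 2 and 21407769 to 22504969 in those numbered 3. The libraries numbered 3 also stood apart in content, since the gene ENSDARG00000070212 took 7.25% to 7.77% of their counts and 0.0489% to 0.19% of the others. The number of calls depended on all libraries. Without the replicate block 45 of the 667 genes were called (20 higher and 25 lower), leaving out any 1 library left 16 (without 18°C /5d replicate 1) to 270 calls (without 18°C /30d replicate 2), and without the 3 libraries numbered 3 there were 32. Without those numbered 1 or 2 the edgeR test called 0 genes, although 2875 and 3064 had an unadjusted p under 0.05. DESeq2 called 2018 genes, which included all 667. No gene of the 667 changed direction under any of these settings. That follows largely from the rule of one direction in all pairs, since every setting used these libraries or a subset of them. The constant direction therefore adds no support to the calls. The 7 genes called in all 9 single-library omissions were rgs4, cyp27c1, zte38, zgc:194210, ALDH1L1, cacng5a and cldn11a, and 337 genes were called in none of them.

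**Figure D1:**
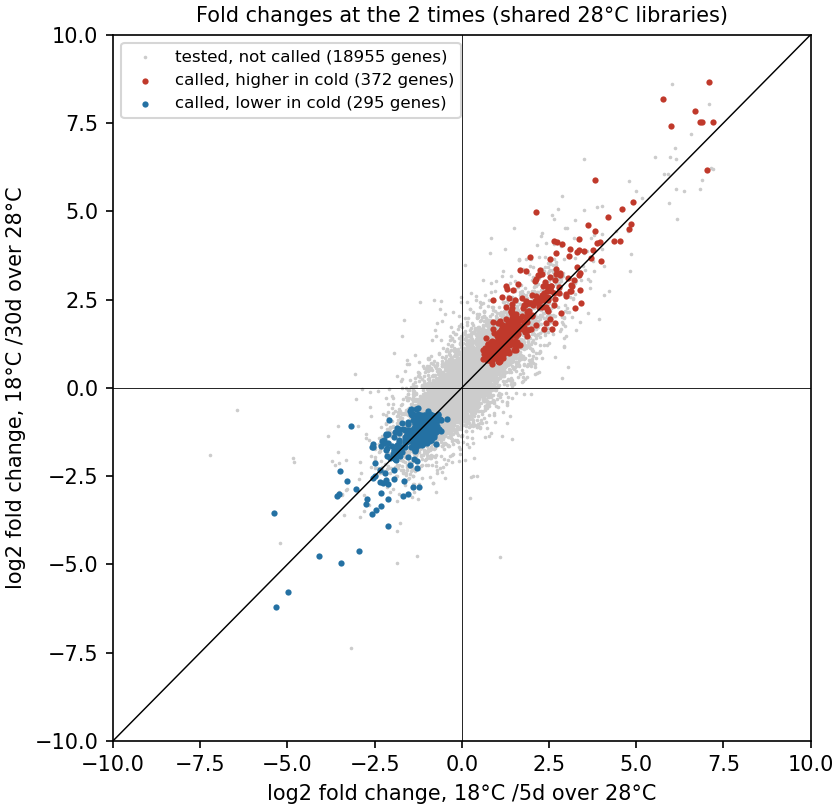
Log2 fold change over 28°C at 18°C /5d (horizontal axis) and at 18°C /30d (vertical axis) for each gene tested, with the 372 genes called higher in red, the 295 called lower in blue and the diagonal in black. Both axes use the same 3 libraries at 28°C, so points are drawn towards the diagonal, and the red points at the upper right are genes with few or no counts at 28°C.

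The gene with the lowest adjusted p was rgs4, a regulator of G protein signalling that shortens signals from G protein-coupled receptors. Its level in CPM (counts scaled to a common library size) was 0.831, 2.03 and 0.208 in the 28°C libraries, 12.5, 18.4 and 6.12 after 5 days, and 53.4, 91.3 and 22.3 after 30 days. Every cold library lay above every 28°C library (log2 fold change of both cold conditions over 28°C 4.85 ± 0.31 (SE), adjusted p = 0.00467). The 18°C /30d libraries lay above those of 18°C /5d, but the edgeR test between the times did not pass (adjusted p = 0.591). By size of change, rgs4 led the 14 largest rises, followed by tnfrsf21, a death-domain receptor of the tumour necrosis factor family (3.52 ± 0.62), and npr1b, a receptor for natriuretic peptides (3.39 ± 0.62). A second natriuretic peptide receptor, npr3, which removes these peptides, was noticed after its values were seen; it held 78, 93.6 and 103 CPM at 28°C and 195 to 483 CPM in the cold (1.53 ± 0.28, adjusted p = 0.0341). The p-values throughout measure only the spread between these libraries.

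Among the other large rises, cyp27c1, a cytochrome P450 that desaturates vitamin A in zebrafish, held 15.8, 12 and 9.16 CPM at 28°C, 87.9, 52.6 and 31.9 CPM after 5 days and 135, 126 and 62.9 CPM after 30 days. The groups did not overlap, and replicate 3 was the lowest of each condition (2.62 ± 0.21, adjusted p = 0.00808). The collagen prolyl 3-hydroxylase p3h2 rose from 5.56, 10.1 and 6.83 CPM to 25.8, 43.4 and 54.3 CPM at 18°C /5d and 37.8, 81.6 and 50.4 CPM at 18°C /30d. This was a 6.37-fold difference with no overlap (2.67 ± 0.24, adjusted p = 0.00808). The secreted Wnt antagonist wif1 rose 5.02-fold (2.33 ± 0.32), the transcription factor sox7 6.56-fold (2.71 ± 0.49) and the apolipoprotein B gene apobb.1 6.07-fold (2.60 ± 0.40). The stress-responsive niban1b (5.6-fold), the muscle kinase gene alpk3a (4.96-fold), the small GTPase-like arl10 (6.59-fold) and the creatine transporter slc6a8 (5.09-fold) were also among them, as was ahrrb, described below. Both slc6a8 and ahrrb overlapped between groups.

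Several of the largest falls were unevenly spread over the replicate numbers. The glycine receptor beta subunit glrbb held 35.9, 26.9 and 325 CPM at 28°C against 0.619 to 3.18 CPM at 18°C /5d and 0.856 to 1.11 CPM at 18°C /30d (-5.77 ± 0.58, adjusted p = 0.0105). The keratin krt4, an epithelial marker, held 3.87, 8.31 and 171 CPM at 28°C against 1.08 to 2.51 and 0.126 to 2.65 CPM (-4.21 ± 0.83, adjusted p = 0.0401). Both genes were by far highest in 28°C replicate 3, although the other 28°C libraries also lay above all cold ones. Without that library glrbb was still called (-4.75 ± 0.41, adjusted p = 0.0215), and krt4 was not (-2.84 ± 0.76, adjusted p = 0.114). The voltage-gated calcium channel gamma subunit cacng5a (17.9, 5.6 and 54.9 CPM at 28°C; -2.93 ± 0.23) fell in all pairs while its groups overlapped. Cytoglobin 2 (cygb2, an oxygen-binding globin) fell 6.25-fold and the vessel-stabilising ligand angpt1 5.24-fold, both highest in 28°C replicate 3, as was ABTB3 (5.41-fold). Without that library cygb2 was still called. ABTB3 then missed the threshold with a change of similar size (-2.35 against -2.43, adjusted p = 0.0568), and the change of angpt1 was smaller (-1.79 against -2.39, adjusted p = 0.0627). In contrast, the gene model with the symbol PHB2, that of a prohibitin of the mitochondrial inner membrane, held 52.7, 55.9 and 25.4 CPM at 28°C and 3.62 to 9.62 CPM in all cold libraries (-2.96 ± 0.32, adjusted p = 0.0111). The homeodomain factor shox held 160, 83.5 and 157 CPM at 28°C and 22.7 to 44.9 CPM in the cold (-1.89 ± 0.20, adjusted p = 0.0111). The remaining falls by this rule were scrn2 (4.18-fold) and the ADP-ribosyl hydrolase adprh (3.75-fold), with serpinh1b, jun, h1-10 and mat1a described below.

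**Figure D2:**
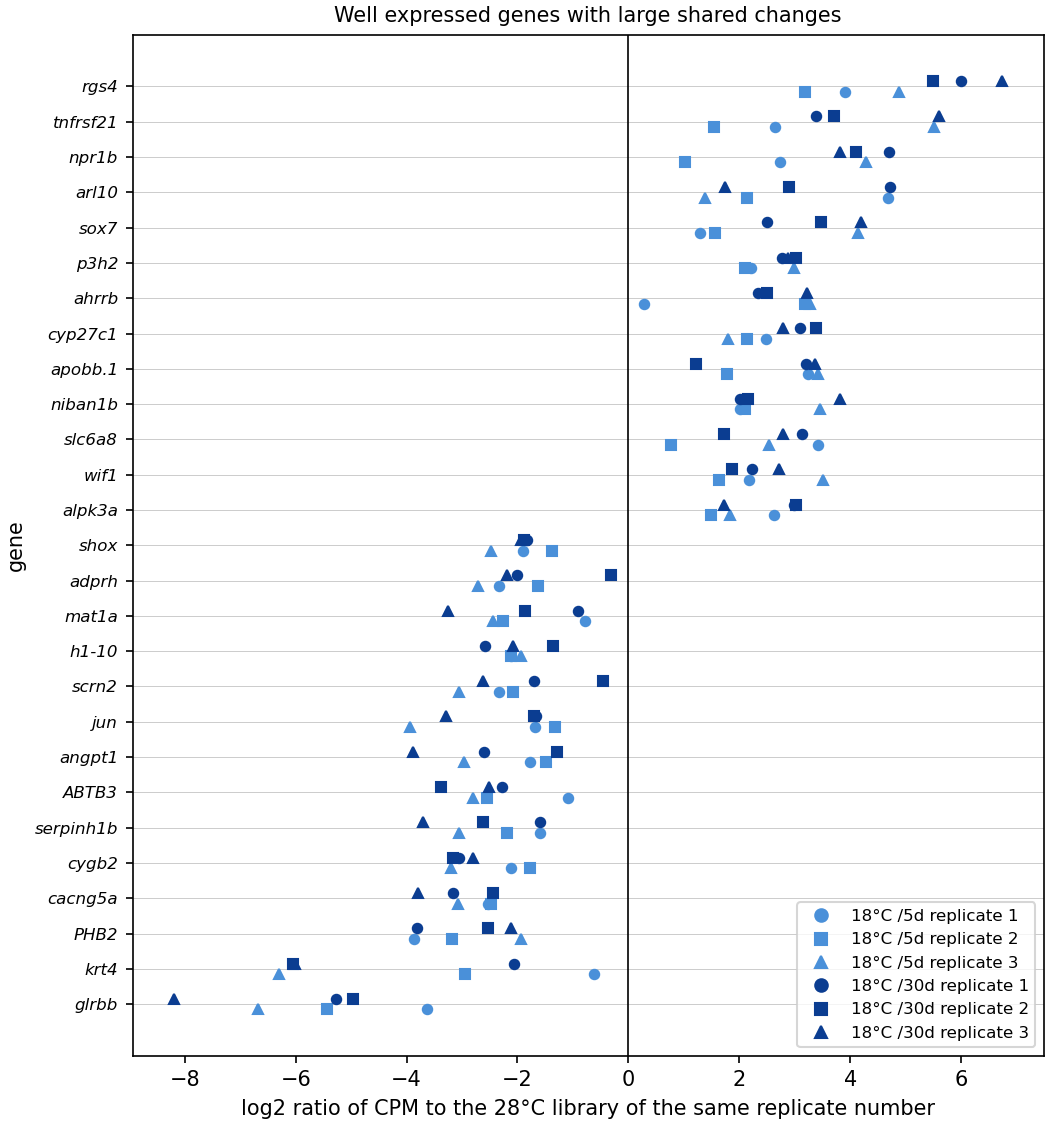
Log2 ratio of CPM in each cold library to the 28°C library of the same replicate number (horizontal axis) for 13 of the 14 largest rises and the 14 largest falls among well expressed shared genes (vertical axis), light blue for 18°C /5d and dark blue for 18°C /30d. By the rule for a call, all points of a gene lie on one side of 0. The spread is widest for glrbb, krt4, npr1b and tnfrsf21.

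The collagen chaperone serpinh1b (Hsp47), which binds procollagen in the endoplasmic reticulum, fell in every pair. It held 1480, 1580 and 2840 CPM at 28°C, 491, 348 and 340 CPM at 18°C /5d and 489, 256 and 218 CPM at 18°C /30d. No library overlapped, and the difference was 5.71-fold (-2.51 ± 0.30, adjusted p = 0.0135). A second gene model of this family, SERPINH1, chosen after its values were seen, fell 2.16-fold (adjusted p = 0.0283). Reads of similar genes can be split between models. Of 49 heat shock chaperones tested, 2 fell (4.08%), serpinh1b and the immunophilin co-chaperone fkbp4 (-0.66 ± 0.14), and 0 rose. Of the same list 12 were higher and 2 lower in all pairs, 12 had an unadjusted p under 0.05, DESeq2 called 8, and the median was 0.24. Over all 19622 genes tested, 4402 had such a p, DESeq2 called 2018 and limma-voom 903. Such counts in this and the following lists are to be read against these numbers.

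A few other endoplasmic reticulum genes were called, in both directions. In the KEGG list of protein processing in this compartment, 2 of 171 genes rose (ero1b and mapk8a) and 1 fell (os9). These shares of 1.17% and 0.585% lay below the 1.90% and 1.50% of all genes tested. In the list 25 genes were higher and 14 lower in all pairs, and the median was 0.09. Reticulocalbins bind calcium in the lumen of this compartment, and of the 6 reticulocalbins and calumenins tested, rcn3 and rcn2 fell. The 3 libraries at 28°C held 48.9, 39.5 and 59.7 CPM of rcn3, and the 6 cold libraries 12.4 to 15.4 CPM (-1.83 ± 0.18, adjusted p = 0.0105). For rcn2 the 28°C libraries held 16.2, 11.8 and 12.4 CPM and the cold ones 4.7 to 8.62 CPM, a 2-fold fall (adjusted p = 0.0295). The lysyl hydroxylase plod1a, a collagen-modifying enzyme, held 85, 102 and 72.8 CPM at 28°C and 31.2 to 57.4 CPM in the cold (-1.08 ± 0.17, adjusted p = 0.0266). The lectin os9, which hands misfolded glycoproteins to degradation, fell 2.3-fold (adjusted p = 0.0137), whereas the thiol oxidase ero1b rose 2.09-fold (adjusted p = 0.0348). Of 50 genes of the unfolded protein and integrated stress response, 1 rose (the co-chaperone dnajb9b, 1.32 ± 0.26) and 1 fell (the transcription factor atf5b, -0.97 ± 0.18), and their median was -0.09 (-0.24 to 0.01 over the alternatives). Outside that list, and chosen after its values were seen, the bZIP factor cebpg, a partner of ATF4 in mammals, fell 2.43-fold (adjusted p = 0.0411). It went from 92.5, 84.6 and 276 CPM at 28°C to 37.4 to 74.9 CPM in the cold.

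Matrix genes moved in both directions. Of 65 genes of the fibroblast extracellular matrix list, 4 rose (6.15%) and 1 fell (1.54%) (plod1a) by the edgeR test, and the median of the list was 0.23. In all pairs 16 were higher and 7 lower, 29 had an unadjusted p under 0.05, and DESeq2 called 17. The gelatinase mmp9 held 332, 119 and 129 CPM at 28°C, 678, 417 and 805 CPM at 18°C /5d and 1060, 797 and 865 CPM at 18°C /30d (2.08 ± 0.30, adjusted p = 0.0218). The collagens col12a1a (3.17-fold) and col18a1a (1.8-fold) rose in all pairs, but 28°C replicate 3 overlapped the cold libraries in both.

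In the list of TGF-beta signalling genes the calls were ligands. Of 52 genes of TGF-beta and bone morphogenetic protein signalling, 3 rose (5.77%) and 0 fell, while 20 had an unadjusted p under 0.05 and DESeq2 called 8. Each of the 3 is a ligand or ligand subunit. TGF-beta 1 (tgfb1a) held 25.9, 22.6 and 54.4 CPM at 28°C, 52.2, 64.4 and 241 CPM at 18°C /5d and 75.9, 121 and 273 CPM at 18°C /30d. Within each replicate number the cold libraries were higher, and 28°C replicate 3 exceeded 18°C /5d replicate 1 (1.82 ± 0.24, adjusted p = 0.0202). The activin subunit inhbb held 14.9, 24 and 16.5 CPM at 28°C and 38.2 to 118 CPM in the cold, without overlap (2.04 ± 0.28, adjusted p = 0.0213), and tgfb2 rose 1.79-fold with overlap (0.84 ± 0.17, adjusted p = 0.0411). In the wider KEGG pathway, 5 of 96 genes rose (5.21%) and 1 fell (1.04%). There lft2, a Lefty antagonist of Nodal, rose from at most 0.0472 CPM at 28°C to 0.352 CPM or more in each cold library, and the kinase ROCK2 rose 1.91-fold. The transcription factor snai2, which TGF-beta induces in many cells and which served as a fibroblast marker, rose 4.01-fold with overlap (2.01 ± 0.37, adjusted p = 0.0354). Fibroblast markers as a whole summed to 8040 to 14800 CPM at 28°C, 8520 to 10400 CPM at 18°C /5d and 6940 to 11900 CPM at 18°C /30d. Of 20 markers, 18 had a mean over the 9 libraries of 1 CPM or more. These include dcn, which held 0.167 to 0.817 CPM at 28°C. Of the 19 markers tested, the edgeR test called snai2 alone. In all pairs 2 were higher and 4 lower, and the median was -0.06.

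Of the immediate early and growth factor genes, jun, a subunit of the AP-1 transcription factor, held 275, 202 and 479 CPM at 28°C, 85.4, 80.7 and 31.3 CPM at 18°C /5d and 86.2, 62.4 and 49 CPM at 18°C /30d. The fall was 5.05-fold, without overlap, and alike in size at both times (-2.34 and -2.33, adjusted p = 0.0276 for both times together). The Krüppel-like factor klf6a rose 2.41-fold (adjusted p = 0.0313), and these were the 2 calls among 44 genes of that list. The c-Jun N-terminal kinase mapk8a rose 1.86-fold (adjusted p = 0.0484). Actin genes gave 1 call in each direction among 35 tested, the actin-sequestering thymosin tmsb4x (fell 1.79-fold) and the serum response factor srfb (rose 2.29-fold). Outside the list, and chosen after their values were seen, the thymosin tmsb2 fell from 198, 141 and 82.4 CPM to 28.2 to 56.9 CPM (adjusted p = 0.0127), and the LIM protein fhl3b rose 4.47-fold (adjusted p = 0.0328). Sarcomere genes chosen in the same way also rose, namely spegb (3.85-fold), neb (3.53-fold) and myot (5.96-fold), while the edgeR test and DESeq2 called 0 of the 7 muscle markers tested, 0 had an unadjusted p under 0.05, and the summed markers ranged from 97.1 to 229 CPM at 28°C and from 95.6 to 212 CPM in the cold.

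**Figure D3:**
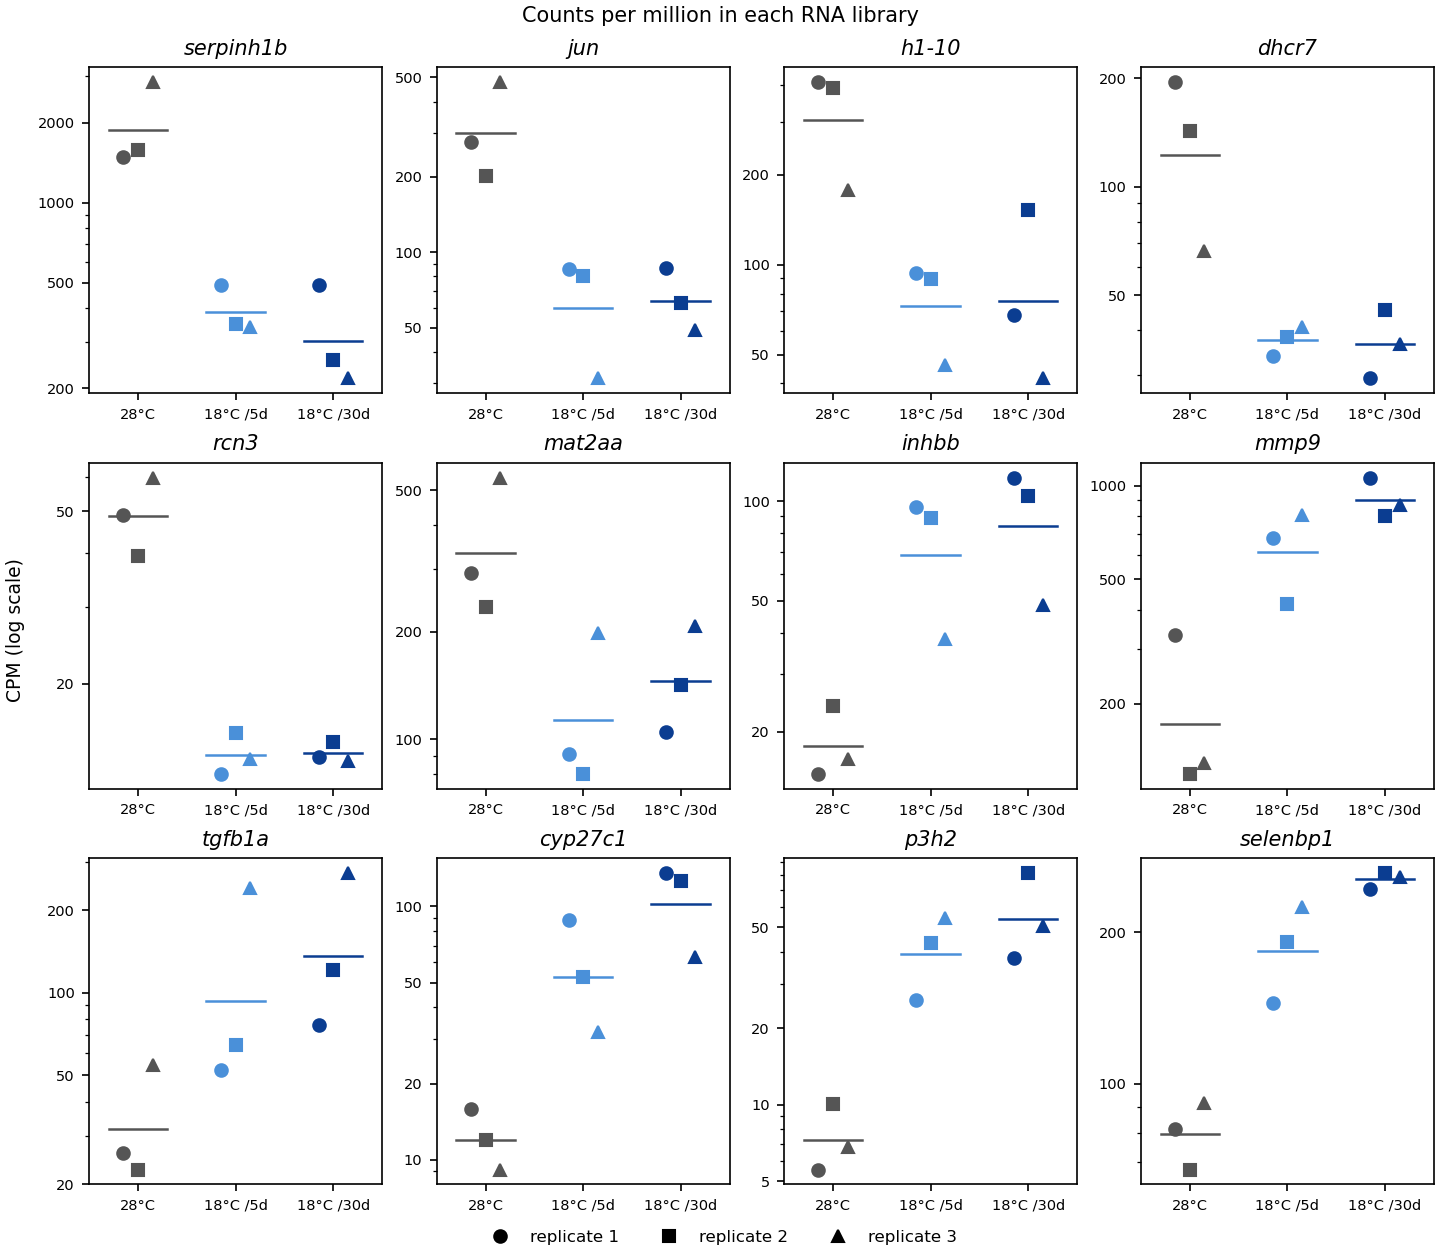
CPM on a logarithmic axis for 12 shared genes in each RNA library, by condition, with circles, squares and triangles for replicates 1, 2 and 3 and a line at the geometric mean of the 3 libraries. In 11 genes the cold libraries do not overlap those at 28°C; in tgfb1a, 28°C replicate 3 lies at 54.4 CPM and 18°C /5d replicate 1 at 52.2 CPM.

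Some enzymes of one-carbon metabolism fell, while most were not called. In the methionine cycle, methionine adenosyltransferases make S-adenosylmethionine, the methyl donor of DNA methylation, and adenosine kinase clears the adenosine left after transfer. Both mat2aa and mat1a encode such transferases. The first held 292, 235 and 542 CPM at 28°C, 91.1, 79.9 and 199 CPM at 18°C /5d and 105, 142 and 208 CPM at 18°C /30d (-1.37 ± 0.18, adjusted p = 0.0174). The second fell 3.91-fold, from 9.69, 16.9 and 31 CPM to 3.24 to 5.72 CPM (adjusted p = 0.0323). Adenosine kinase (adka) held 28.5, 26.4 and 34 CPM at 28°C and 7.92 to 10 CPM in all 6 cold libraries, a 3.39-fold difference (-1.76 ± 0.15, adjusted p = 0.00808). The gene model ALDH1L1, a 10-formyltetrahydrofolate dehydrogenase, held 157, 102 and 163 CPM at 28°C, 32.9, 29.2 and 43.5 CPM at 18°C /5d and 44.2, 39 and 50.8 CPM at 18°C /30d (-1.81 ± 0.15, adjusted p = 0.00808). A second model with the same name, aldh1l1, fell 3.82-fold, and the sarcosine dehydrogenase SARDH rose 3.28-fold at a low level (1.54 to 2.47 CPM at 28°C). Of 26 methionine-cycle and folate-linked enzymes, a list drawn up after values were seen, 5 models fell and 1 rose by the edgeR test, 14 had an unadjusted p under 0.05 and DESeq2 called 9. In the KEGG list of the one carbon pool by folate, ALDH1L1 was the only call among 17 genes, 7 had an unadjusted p under 0.05, DESeq2 called 5, and the median was -0.36 (-0.62 to 0.01 over the alternatives). The list of DNA methylation machinery, which includes the methyltransferases, had 29 genes tested, of which 1 fell (mat2aa) and 1 rose by the edgeR test. The latter was the GTP cyclohydrolase GCH1, a listed gene that makes tetrahydrobiopterin (4.04-fold, adjusted p = 0.0242). Of the 29, 9 had an unadjusted p under 0.05 and DESeq2 called 5. In the KEGG folate biosynthesis pathway GCH1 and the alkaline phosphatase ALPL (1.55, adjusted p = 0.0343) were the 2 calls among 13 genes.

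Aldehyde dehydrogenase 2 fell, and redox lists gave a few calls. Mitochondrial aldehyde dehydrogenase 2 is represented by 4 gene models in the table. The model aldh2.2 held 63.8, 58.7 and 45.1 CPM at 28°C and 16.2 to 28.1 CPM in the cold (-1.44 ± 0.15, adjusted p = 0.0111), and ENSDARG00000037094, annotated by the authors as an aldehyde dehydrogenase 2, held 66.7, 56.9 and 43.7 CPM and 16.3 to 26.9 CPM. The other models, ENSDARG00000090766 and aldh2.1, fell 2.53-fold and 1.9-fold. The first 2 models had nearly the same values, and reads may have been counted for several of them, so the 4 calls are not independent. They made up 4 of the 5 falls among 58 genes of the KEGG glycolysis pathway. Glutathione metabolism gave 4 falls and 0 rises among 41 genes (18 with an unadjusted p under 0.05, and 8 called by DESeq2). Of these 41 genes 24 lay above 0, and the median was 0.21 (-0.06 to 0.38 over the alternatives). The falls were the glutathione S-transferases gstt1a (3.6-fold), GSTM3 (2.14-fold in the model called) and gstk1 (2.37-fold) and the oxoprolinase OPLAH (2.16-fold). Among 48 antioxidant genes, catalase (cat, -0.82 ± 0.15), the peroxidase gpx8 (-1.26 ± 0.21) and gstk1 fell (6.25%), and selenbp1, a selenium-binding protein known in mammals as a methanethiol oxidase, rose (1.44 ± 0.18). In that list 28 genes lay above 0, 13 were higher and 6 lower in all pairs, 26 had an unadjusted p under 0.05, DESeq2 called 11, and the median was 0.16. The level of selenbp1 was 81.3, 67.6 and 91.6 CPM at 28°C, 145, 191 and 224 CPM at 18°C /5d and 244, 262 and 258 CPM at 18°C /30d, without overlap. The methionine sulfoxide reductases msraa (3.46-fold) and msrb3 (2.57-fold), which repair oxidised methionine and were chosen after their values were seen, rose as well. Among 80 peroxisome genes, 4 fell and 0 rose, with cat, gstk1 and the lyase hacl1 among those that fell. Of the 80, 16 had an unadjusted p under 0.05 and DESeq2 called 8, against 4402 and 2018 of all 19622 genes tested.

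Among mitochondrial genes, the reads assigned to cytochrome b (MT-CYB) fell from 1550, 1870 and 1860 CPM to 422 to 973 CPM (-1.50 ± 0.22, adjusted p = 0.0218). Glutamate dehydrogenase (glud1a), chosen after its values were seen, fell from 231, 212 and 217 CPM to 75.6 to 112 CPM (-1.25 ± 0.16, adjusted p = 0.0155). Together, genes of the mitochondrial genome took 1.19% to 1.49% of counts at 28°C and 0.709% to 1.18% in the cold. The part of this lower share in the fall of MT-CYB was not tested. The polymerase accessory subunit polg2 fell 2.13-fold, the only call among 22 mitochondrial biogenesis regulators. Carnitine palmitoyltransferases, which admit fatty acids to mitochondria, were noticed after values were seen; cpt1ab rose 2.85-fold (adjusted p = 0.0267) and cpt1a2b 2.83-fold (adjusted p = 0.0215), with the acyl-CoA synthetase acsl2 (5.14-fold) and the cholesterol exporter abca1b (2.86-fold). In sterol synthesis dhcr7, which makes cholesterol in the last step, held 195, 143 and 66.3 CPM at 28°C and 29.4 to 45.5 CPM in the cold (-1.79 ± 0.30, adjusted p = 0.0279). It was the only call among 29 cholesterol genes, whose median was -0.13 (-0.67 to 0.24 over the alternatives). Of 10 desaturases and elongases the edgeR test called 0, with 2 at an unadjusted p under 0.05 and 2 called by DESeq2.

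In ribosomal, tRNA synthetase and respiratory chain lists most members lay slightly below 0. Called lower were 1.19% of cytosolic and 1.43% of mitochondrial ribosomal proteins and 1.53% of oxidative phosphorylation genes. The share was 4.44% of the synthetase genes (2 of 45) and 1.50% of all genes tested. Of 84 cytosolic ribosomal proteins 74 had a fold change below 0, with a median of -0.24 (-0.44 to -0.02 over the alternatives), while 1 was called, rplp2b (-1.19 ± 0.24). Of 70 mitochondrial ribosomal proteins 56 lay below 0 with a median of -0.28, which ranged from -0.52 to 0.05 over the alternatives, and 1 call, mrps31 (-0.81 ± 0.16). Aminoacyl-tRNA synthetase genes had a median of -0.39, with 38 of 45 below 0, and the calls were the mitochondrial mars2 and cars2. Of the 45, 11 were lower in all pairs, against 2288 of all 19622 genes tested. Oxidative phosphorylation had a median of -0.26 (-0.37 to -0.04 over the alternatives), with 94 of 131 below 0 and 3 calls, the falls of MT-CYB and lhpp and the rise of atp6v0a2a. Over all genes tested 9721 of 19622 lay below 0. In the lists of proliferation genes (50 tested), p53 targets (26) and cold-inducible RNA-binding proteins (12), the edgeR test called 0 genes, with 0, 8 and 4 at an unadjusted p under 0.05 and 0, 3 and 0 called by DESeq2. Their medians were 0.12, 0.20 and -0.02, and under some alternatives the first and the last had the other sign.

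**Figure D4:**
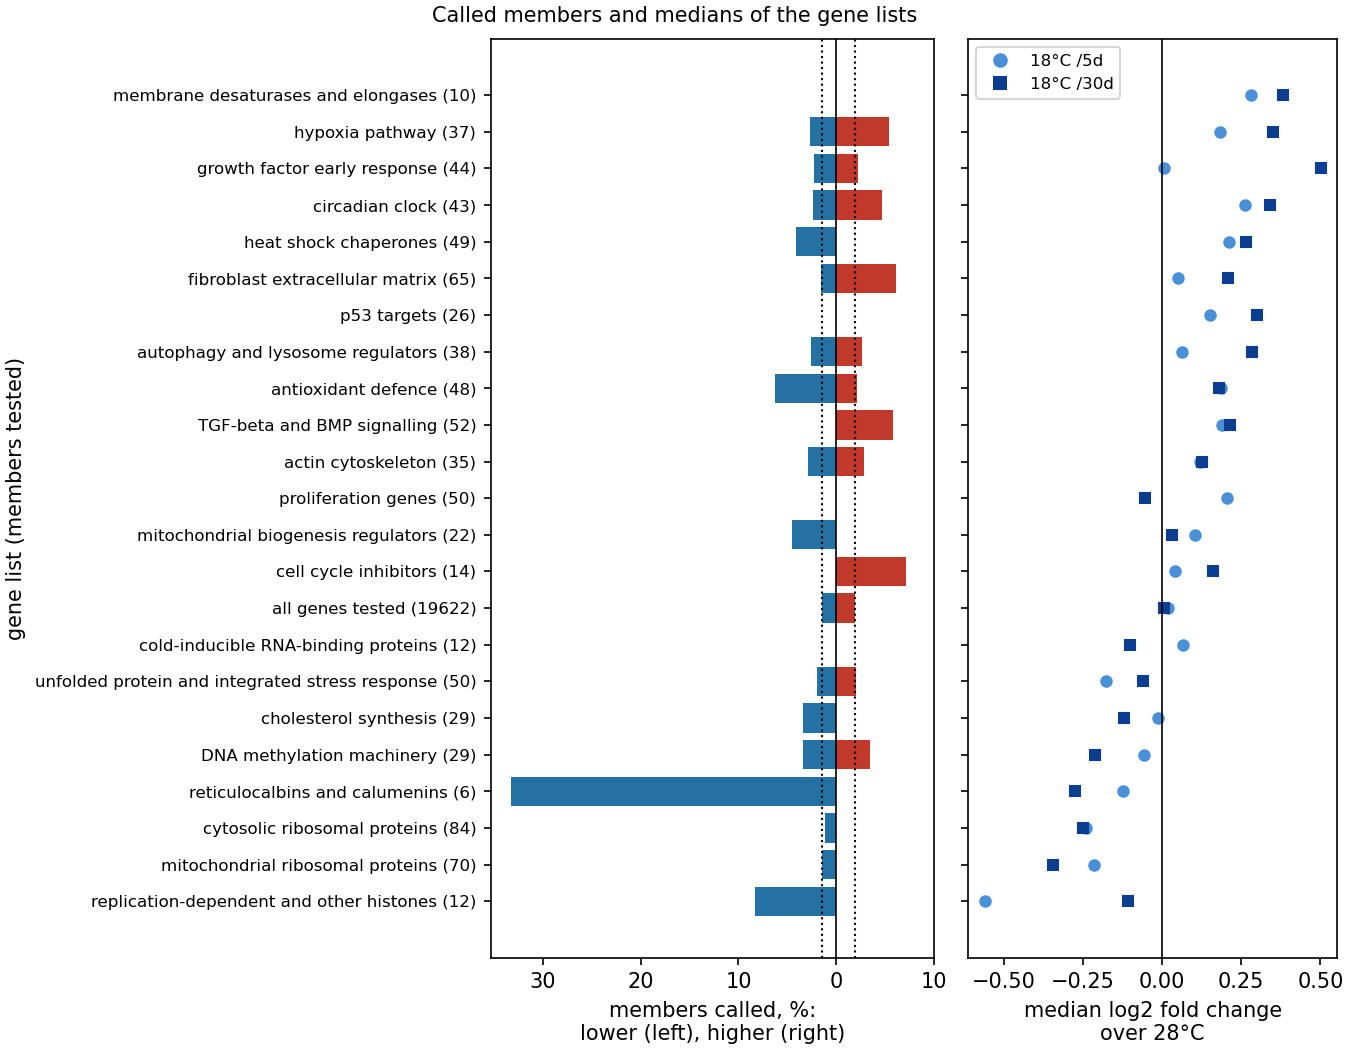
Share of tested members called lower (blue, to the left) and higher (red, to the right) for 22 gene lists and all genes tested, with dotted lines at the shares of all genes, and each list's median log2 fold change at 18°C /5d (circles) and 18°C /30d (squares). The bar of the reticulocalbins stands for 2 of 6 genes, and the histones have the lowest median at 18°C /5d.

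Of the histones, 1 was called. The linker histone h1-10 held 408, 390 and 177 CPM at 28°C, 94, 89.5 and 46 CPM at 18°C /5d and 67.7, 152 and 41.6 CPM at 18°C /30d (-2.02 ± 0.22, adjusted p = 0.0111), the only call among 12 histone genes, of which 4 had an unadjusted p under 0.05 and DESeq2 called 3. The highest cold library stayed below the lowest at 28°C. Further chromatin genes were picked because they were called, after their values were seen, and stand for no group. The heterochromatin protein genes cbx1a (2.12-fold) and cbx1b (2.67-fold), the lamin B receptor lbr (2.15-fold), the nuclear envelope protein tmpoa (1.88-fold), the nucleosome-binding hmgn7 (1.91-fold), the histone chaperone subunit supt16h (2.24-fold) and the H3K9 methyltransferase ehmt2 (1.86-fold) all fell without overlap, at adjusted p between 0.0203 for cbx1a and 0.0446 for ehmt2. These p-values are for both times together, and cbx1b, supt16h and ehmt2 passed at neither time alone, the others after 30 days but not after 5.

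In the proteasome and lysosome lists most calls were rises, those of the proteasome all in models of 1 annotation. PSME4 encodes the proteasome activator PA200, and 3 gene models carried this annotation. PSME4 held 2.31, 2.13 and 3.29 CPM at 28°C and 7.09 to 9.37 CPM in the cold (1.70 ± 0.21, adjusted p = 0.0157), and ENSDARG00000069346 held 2.7, 2.98 and 3.62 CPM and 9.29 to 12 CPM (1.79 ± 0.19, adjusted p = 0.0111). The third, ENSDARG00000088684, was under 1.1 CPM throughout. These 3 models, which may share reads, were the only calls among 53 proteasome genes. Of the 53, 10 had an unadjusted p under 0.05 and DESeq2 called 4, against 4402 and 2018 of all 19622 genes tested. The autophagy receptor sqstm1 (p62) held 531, 163 and 294 CPM at 28°C and 681 to 1590 CPM in the cold (1.71 ± 0.37, adjusted p = 0.0487). A second receptor, optn, chosen after its values were seen, rose 2.41-fold. The autophagy kinase ulk1a fell 2.07-fold with overlap. Lysosomal genes gave 5 rises (3.76%) and 1 fall (0.752%) among 133, against 1.90% and 1.50% of all genes tested. Of the 133, 39 had an unadjusted p under 0.05 and DESeq2 called 16. Among the rises were the cathepsins ctsf (2.1-fold) and ctsh (2.61-fold), the protease napsa (1.81-fold) and the proton pump subunit atp6v0a2a (2.56-fold). The antiproliferative btg2 rose 3.84-fold with overlap, the only call among 14 cell cycle inhibitors.

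Clock genes were called in both directions. Cryptochromes are flavoproteins related to photolyases. In animals some repress the clock, and cry-dash belongs to the DASH type, which is closer to photolyases. The level of cry1a was 22.4, 13 and 30.3 CPM at 28°C, 84.4, 47 and 91 CPM at 18°C /5d and 65, 69.6 and 93.8 CPM at 18°C /30d (1.83 ± 0.22, adjusted p = 0.0146). That of cry-dash rose from 2.23, 2.22 and 4.87 CPM to 7.26 to 17.2 CPM (2.04 ± 0.24, adjusted p = 0.0124), whereas cry3a fell from 33.1, 35.2 and 46.7 CPM to 7.23 to 32 CPM (-1.42 ± 0.24, adjusted p = 0.0276). None of the 3 overlapped between groups. The edgeR test called none of the other 40 of 43 clock genes, while 17 of the 43 had an unadjusted p under 0.05, DESeq2 called 12 and limma-voom 5. The median of the list was 0.30, and 13 genes were higher and 4 lower in all pairs. At what hour and in what light cells were harvested is not given in the sources used here.

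Genes of the aryl hydrocarbon receptor pathway, which senses planar aromatic compounds and tryptophan products, were listed after values were seen. Of 14 tested, 4 rose and 0 fell by the edgeR test, 7 had an unadjusted p under 0.05 and DESeq2 called 5. The receptor repressor ahrrb held 0.519, 2.41 and 5.41 CPM at 28°C, 0.634, 21.9 and 52.4 CPM at 18°C /5d and 2.61, 13.6 and 50.2 CPM at 18°C /30d. The differences between replicate numbers were as large as those between temperatures, and 18°C /5d replicate 1 was close to its 28°C partner (2.66 ± 0.52, adjusted p = 0.0395). The cytochrome P450 genes cyp1b1 and cyp1c1, target genes of this receptor, had at most 0.707 and 0.25 CPM at 28°C. At 18°C /5d cyp1b1 held 0.793, 1.33 and 24 CPM and at 18°C /30d 1.25, 6.12 and 15.9 CPM (3.64 ± 0.65, adjusted p = 0.0322). For cyp1c1 these were 0.476, 2.36 and 21.8 CPM and 1.69, 1.49 and 11.6 CPM (4.74 ± 0.80, adjusted p = 0.0279). Replicate 3 was the highest in every condition for ahrrb, cyp1b1 and cyp1c1. Without the libraries numbered 3 the changes of ahrrb (2.33), cyp1b1 (2.81) and cyp1c1 (3.76) did not pass (adjusted p = 0.137, 0.0889 and 0.109). The paralogue cyp1c2 passed at 0.05 with at most 0.0832 CPM at 28°C, and it too was highest in replicate 3 in every condition. The receptor ahr1a (0.883 to 1.54 CPM at 28°C, 2.03 to 5.53 CPM in the cold) did not pass (adjusted p = 0.0596).

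**Figure D5:**
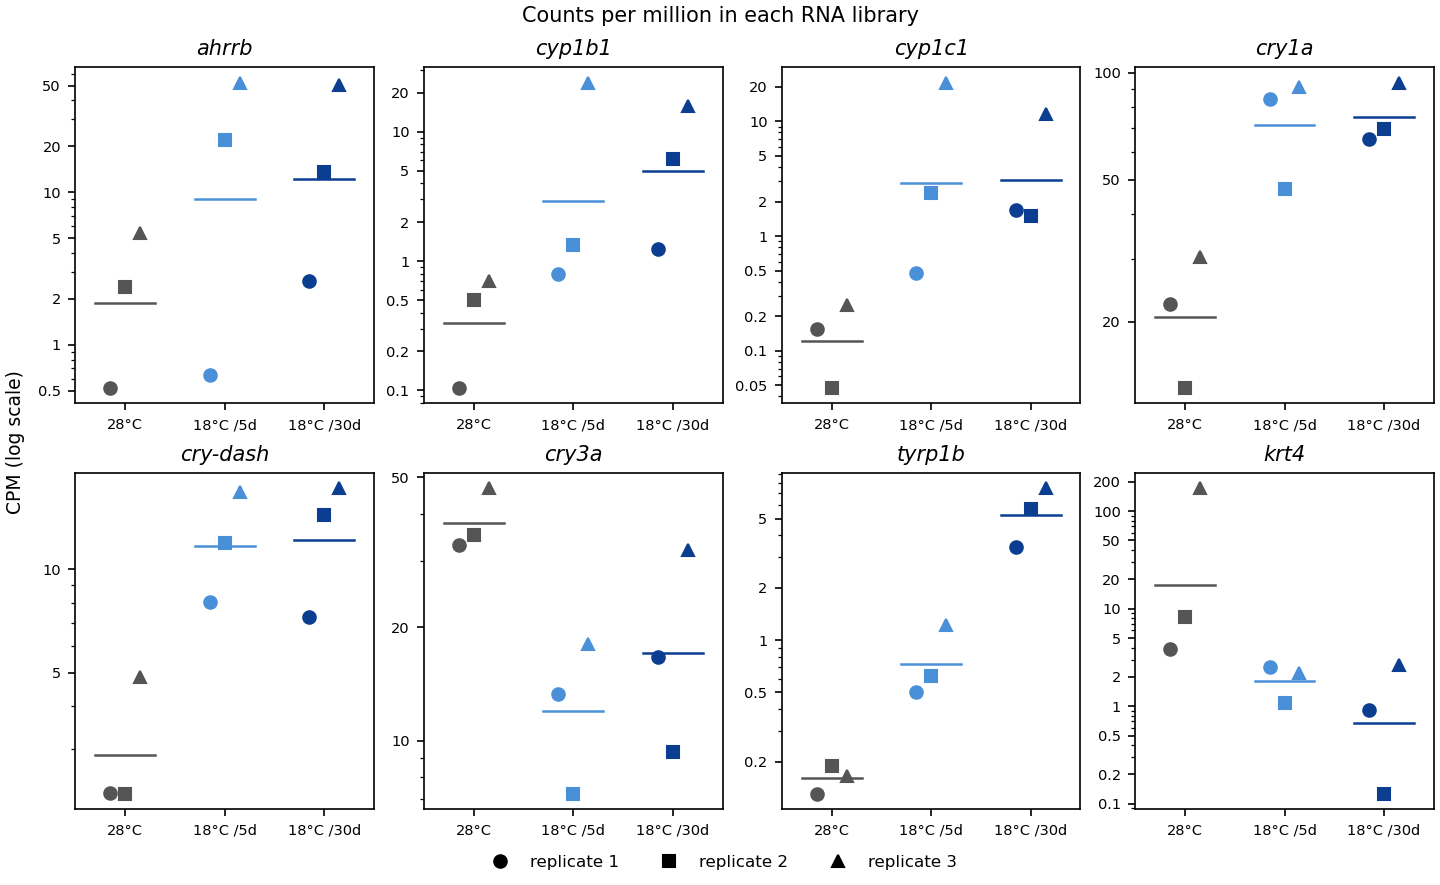
CPM on a logarithmic axis for 8 further shared genes in each RNA library, by condition, with circles, squares and triangles for replicates 1, 2 and 3 and a line at the geometric mean. In cyp1b1 the triangles of replicate 3 reach 24 and 15.9 CPM in the cold, in tyrp1b each 18°C /30d library lies above each 18°C /5d library, and krt4 stands at 171 CPM in 28°C replicate 3.

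Markers of other cell types were mostly low and gave few calls. The pigment enzyme tyrp1b, a melanocyte gene, held 0.13, 0.189 and 0.166 CPM at 28°C, 0.502, 0.619 and 1.22 CPM at 18°C /5d and 3.45, 5.69 and 7.47 CPM at 18°C /30d (3.56 ± 0.35, adjusted p = 0.0105). The 10 pigment cell markers together summed to 28.2 to 34.1 CPM at 28°C, 54.4 to 121 CPM at 18°C /5d and 41.6 to 125 CPM at 18°C /30d, all 7 tested had a fold change above 0, and tyrp1b was the only call by the edgeR test. Of these 7, 6 had an unadjusted p under 0.05, DESeq2 called 4 and limma-voom 2, and without the libraries numbered 3 tyrp1b was about as much higher but missed the threshold (3.30 against 3.56, adjusted p = 0.0553). The pigment markers mitfa and tyr stayed at or below 0.0263 and 0.169 CPM in every library. In 18°C /5d replicate 3, oca2 alone held 64.7 CPM. DCT was lower at 18°C /5d than at 28°C in replicates 2 and 3, and higher in the other pairs. The part of the pigment markers in other rises was not tested. Epithelial markers gave a rise of the claudin cldni (206, 101 and 138 CPM at 28°C, 387 to 949 CPM in the cold) and the fall of krt4, while their sum was 2220 to 3600 CPM at 28°C and 1850 to 3710 CPM in the cold. Markers listed at 0 in all libraries were ESRP2, sox10, lyz and cdh5.

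Taken singly, the times gave fewer calls. The edgeR test against 28°C called 51 genes after 5 days and 297 after 30 days. Of the 667 shared genes, 49 were called at both, 2 at 18°C /5d alone, 237 at 18°C /30d alone and 379 at neither. These counts share the 28°C libraries and do not show that the times differ. In the direct comparison of 18°C /30d with 18°C /5d in the same fit, the edgeR test called 0 genes, with 496 of 19622 (2.53%) at an unadjusted p under 0.05, and DESeq2 called 6. Of the shared genes 70 (10.5%) had such a p, and in 54 of these the change was the larger at 18°C /30d. Among all shared genes it was the larger then in 269 of the 372 that rose and 161 of the 295 that fell. The shared genes were chosen by a p from the same estimate of spread, so 10.5% cannot be set against 2.53%. Of the shared genes, tyrp1b rose by a log2 fold change of 2.13 after 5 days and 4.98 after 30 days, and rgs4 by 3.81 and 5.88. The difference between the times had an unadjusted edgeR quasi-likelihood p of 2.18e-05 for tyrp1b (adjusted p = 0.428) and 6.02e-05 for rgs4 (adjusted p = 0.591). Both fail the adjustment. In each gene every 18°C /30d library lay above every 18°C /5d library. Since both genes had a low p from these same libraries, that separation adds no support to a difference between the times.

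Promoter methylation was compared as a readout that the calls did not use. MeDIP-seq captures fragments that carry methylated cytosines, and each condition had 1 library from 3 pooled cultures, so no test was possible. The authors' table held 160561 peaks, 13381 of them in promoters. A promoter peak with reads in all 3 libraries was found for 66 of the 372 genes that rose (17.7%), 46 of the 295 that fell (15.6%) and 3283 of all 19622 genes tested (16.7%). The median log2 ratio of (RPM + 1), where RPM scales reads to the total on all peaks, was 0.06 at 18°C /5d and 0.12 at 18°C /30d over 28°C for genes that rose, 0.04 and 0.00386 for genes that fell, and 0.03 and 0.05 for all genes tested. The ratio was below 0 at both times in 13 of the 66, 11 of the 46 and 874 of the 3283 genes. Neither selenbp1 nor gstk1 had a promoter peak with reads in all 3 libraries, so both fall outside this comparison. The paper reports both promoters as less methylated in the cold. Single genes went either way. The promoter peaks of scrn2 held 51.5 RPM (152 reads) at 28°C, 13 RPM (32 reads) at 18°C /5d and 27 RPM (65 reads) at 18°C /30d while its RNA fell, and those of ulk1a, whose RNA also fell, held 9.48, 25.2 and 12.1 RPM. For glrbb the values were 12.5, 9.74 and 7.48 RPM (37, 24 and 18 reads), and for cyp27c1 6.1, 3.25 and 6.65 RPM (18, 8 and 16 reads). Those of ulk1a rested on 28, 62 and 29 reads.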

How the data were processed

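RNA was sequenced in 9 libraries of ZF4 cells and MeDIP DNA in 3, 1 per condition from 3 pooled cultures. For RNA-seq the authors deposited read counts per Ensembl gene; the steps behind them are not given in the sources used here, including whether strand was used, so overlapping genes may share reads. MeDIP reads passed a FASTX-Toolkit quality filter and a Bowtie2 alignment to danRer7 (Zv9); MACS peaks of the separate libraries were then joined by Bedtools, and the authors deposited for each joined peak a read count and an RPM value, scaled to the reads on all peaks. The 18 deposited columns of RPKM and TPM and the columns of the authors' own comparisons (fold changes and p-values) were not used.

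Counts were analysed in R 4.3.3 with edgeR 4.0.16 (TMM, filterByExpr, quasi-likelihood F-test) in one fit of the 9 libraries with condition and replicate number as terms, which left 4 residual degrees of freedom. The contrast was the mean of both cold conditions minus 28°C, and 18°C /30d minus 18°C /5d was taken from the same fit. Standard errors are the log2 fold change divided by the square root of F. Direction within pairs used log2 CPM with a prior count of 2. CPM values carry TMM scaling. The block by replicate number was part of the definition of this comparison. After removal of condition means, the deviations of same-numbered libraries correlated at 0.266 to 0.672 in all 9 pairs. Of 9 libraries, 7 were closest to one of their own number. Number 3 with another number gave -0.699 to -0.263, and numbers 1 and 2 crossed 0.133 to 0.513. The check thus set number 3 apart but hardly separated 1 from 2. For 28°C replicate 1 it gave 0.513 with 18°C /30d replicate 2 and 0.266 with 18°C /30d replicate 1. Beyond the replicate numbers in the labels, nothing else was available on the pairing.

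The total counts of 21407769 to 44853311 per library put 3 counts at 0.0669 to 0.14 CPM. In counts simulated for the cold contrast over 19255 genes, the test recovered 81 of 100 genes changed 4-fold and 6 of 100 changed 2-fold, with 4 false calls. Symbols came from RefSeq through the authors' best hits and from a table of gene names, and 23154 of 32677 genes had one. Named genes are the 14 largest rises and 14 largest falls among shared genes with a symbol and a mean log2 CPM above the median of 3.06, plus called members of gene lists (up to 4 per list, or those on which a sentence turns); others are marked in the text as chosen after values were seen. A few genes that these rules select are not reported here. The members and lists were chosen with earlier results of these data known. Promoter MeDIP values are sums of RPM over a gene's promoter peaks with reads in all libraries, with a pseudocount of 1. Alternatives were DESeq2 1.42.0, limma-voom (limma 3.58.1), other scaling, filters, thresholds and blocks, a pseudocount of 0.1 and the omission of each library and each replicate number. Promoter sequences were not analysed here, so the planned search for motifs was not run.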

Additional observations from a re-analysis of the deposited data

How the results depend on the processing

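The shared call rests on all libraries and on the block. Without the replicate block, 45 genes were called (20 higher, 25 lower) in place of 667 (372 higher, 295 lower), and with the paired fit by DESeq2 2018 genes (1197 higher, 821 lower), which included all 667. Leaving out 1 library gave 16 to 270 shared genes (9 to 136 higher, 7 to 134 lower), and leaving out a replicate number gave 0 to 32 (0 to 15 higher, 0 to 17 lower); the lowest are those without replicate 1 and without replicate 2. With 1 library fewer in a fit of few residual degrees of freedom, fewer calls follow by construction as well. Upper-quartile scaling (618), no filter (789), at least 10 counts in every library (678), a robust fit (667), limma-voom (903), a 2-fold minimum (542) and a block that sets replicate 3 against 1 and 2, chosen after seeing the data (829), stayed within 1.5 times the count, with 599, 650, 568, 658, 658, 542 and 602 of the 667 genes kept. Between the times, DESeq2 called 6 genes where every other setting called 0.

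The 156 genes followed under 21 settings gave 3256 values, of which 1542 lost the call. That 0 changed direction follows largely from the rule of one direction in all 6 pairs. The medians of the cytosolic ribosomal (-0.44 to -0.02) and aminoacyl-tRNA genes (-0.58 to -0.18) stayed below 0 throughout, that of mitochondrial ribosomal genes did not (-0.52 to 0.05), and that of the TGF-beta list reached -0.02. For promoter methylation, keeping peaks with a count of 0 or a pseudocount of 0.1 RPM moved each median by less than 0.1. In the simulation 6 of 100 genes changed 2-fold were called. It held fewer changed genes than were called here, so its adjusted threshold was stricter and this share does not carry over to the data. The smallest log2 fold changes called here were 0.71 for a rise and -0.66 for a fall.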

Other observations

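Further shared changes, chosen after their values were seen, concerned proteins of the cell surface, RNA helicases and lipid storage. The annexins anxa1a and anxa2a, which bind membranes in the presence of calcium, fell 2.35-fold and 2.01-fold, and the annexin partner s100a10b fell from 3180, 2810 and 2960 CPM to 1230 to 2140 CPM (-0.92 ± 0.18, adjusted p = 0.0412). The glutathione-binding lancl1 held 59, 49.1 and 45.7 CPM at 28°C and 153 to 229 CPM in the cold, with no overlap (1.94 ± 0.18, adjusted p = 0.00808). Of RNA helicases, ddx39b, an mRNA export factor, held 5.12, 10.4 and 4.54 CPM at 28°C and 18.8 to 22.7 CPM in the cold (1.75 ± 0.26, adjusted p = 0.0229), and ddx5 rose 2.39-fold. The lipid droplet protein plin2 (2.62-fold) and the lipid transporter abca7 (2.97-fold) rose, each without overlap.

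Of 37 genes of the hypoxia pathway, cited4b and the mitophagy receptor bnip3lb rose and 1 sparsely counted gapdh model fell. The first held 14.3 to 19.5 CPM at 28°C and 46.8 to 67.7 CPM in the cold (1.60 ± 0.20, adjusted p = 0.0157), and the second rose 2.07-fold with overlap. The angiogenic factor VEGFA, from the focal adhesion list, held 17.2, 21.8 and 21.8 CPM at 28°C and 7.08 to 11.2 CPM in the cold (-1.08 ± 0.19, adjusted p = 0.0315). The secreted chemokine cxcl18b, chosen after its values were seen, rose from 20.1, 23.9 and 7.41 CPM to 29 to 265 CPM (2.12 ± 0.41, adjusted p = 0.0395). Its lowest level among the 18°C /30d libraries was in replicate 3.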
